A study of Homo sapiens with 6 samples.

Results

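The Ikaros zinc finger family comprises 5 genes, IKZF1 (Ikaros), IKZF2 (Helios), IKZF3 (Aiolos), IKZF4 (Eos) and IKZF5 (Pegasus). Its messenger RNA was followed in RPMI-8402, a cell line established from a human T-cell acute lymphoblastic leukaemia. Cells received a lentivirus with a control construct, with a short hairpin RNA (shRNA) directed at GATA3 (shGATA3) or with an shRNA directed at TCF1, which is encoded by TCF7 (shTCF1). EGFP-positive cells were sorted 48 h later, and 100 ng of total RNA from each sample was labelled with Cy3 and hybridised to a 1-colour Agilent array, with 2 arrays per group and 6 in all. The family was measured by every non-control probe whose RefSeq accession belongs to 1 of the 5 genes. The rule found 4 of the 5 genes and 6 of 57176 probes: 3 for IKZF2, 1 each for IKZF1, IKZF3 and IKZF4, and 0 for IKZF5. Of these 6 probes, 5 were well above background on all 6 arrays and entered a test across 31134 probes, and that of IKZF3 was not tested.

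Ikaros family proteins bind DNA through a cluster of zinc fingers near the amino terminus and pair with each other through a second cluster near the carboxy terminus. They recruit chromatin complexes, above all the nucleosome remodelling and deacetylase (NuRD) complex, and can repress or maintain the genes they bind. Ikaros is needed for lymphoid development and is lost or altered in many lymphoid leukaemias, Helios is found mainly in T cells and their precursors, Aiolos is best known from B-cell maturation, and Eos acts with FOXP3 in regulatory T cells. Both hairpins were directed against transcription factors of early T cells, so the promoter of the member whose probe changed is shown with the short motifs of those factors.

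RefSeq promoter windows of the build GRCh38.p14 were given for 4 of the 5 genes, 10 windows in all, and none for IKZF3. The 250 bases before each start were searched on both strands for the GATA motifs AGATAA or AGATAG or TGATAA or TGATAG and for the TCF/LEF motifs CTTTGA or CTTTGT. The outermost IKZF2 start is shown because IKZF2 was the member with a called probe, and the outermost IKZF4 start because IKZF4 had no called probe. Both are written 5′ to 3′ in the direction of the gene, with motif matches in capitals. The IKZF2 window lies at chr2:213152457-213152706 on the minus strand and the IKZF4 window at chr12:56007254-56007503 on the plus strand.
IKZF2: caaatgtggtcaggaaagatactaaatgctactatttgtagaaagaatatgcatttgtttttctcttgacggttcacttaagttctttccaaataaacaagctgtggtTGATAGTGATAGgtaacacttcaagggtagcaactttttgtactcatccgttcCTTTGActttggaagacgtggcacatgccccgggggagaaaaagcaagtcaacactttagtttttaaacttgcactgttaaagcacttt
IKZF4: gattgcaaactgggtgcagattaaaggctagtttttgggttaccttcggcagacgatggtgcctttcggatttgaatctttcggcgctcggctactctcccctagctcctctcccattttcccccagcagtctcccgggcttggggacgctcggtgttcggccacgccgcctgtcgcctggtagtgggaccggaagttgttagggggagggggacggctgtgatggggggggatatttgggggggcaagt

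The IKZF2 window held 2 adjacent TGATAG matches, which do not overlap each other, and 1 CTTTGA match, all on the strand of the gene. Its GC content was 38%. The second IKZF2 window and all 3 IKZF4 windows held no match. IKZF1 had no called probe either, yet 1 of its 3 windows held 2 AGATAA matches and 1 CTTTGT match. Matches of both kinds were thus not particular to the member with a called probe. Of the 2 IKZF5 windows, 1 held a CTTTGT match. Among all 35116 windows of this length, 22.3% held at least 1 of the GATA motifs and 22.8% at least 1 of the TCF/LEF motifs, and TGATAG alone was in 5.05%. A match describes the letters of the window and not a bound site.

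The targeted genes and the cell identity were checked first. GATA3, measured by 1 probe, read 9.46 and 9.55 (log2 intensity after variance stabilizing normalization, VSN) on the arrays labelled shGATA3 and 9.54 and 9.56 in control (difference -0.050, adjusted p = 0.795 in limma, not called). Against shTCF1, GATA3 was lower for shGATA3 by -0.33 (adjusted p = 0.136), and shTCF1 was 0.28 above control (adjusted p = 0.122), neither called. TCF7 was lower on the arrays labelled shTCF1, at 12.58 and 12.68 against 13.96 and 13.91 in control, by a difference of -1.31 (adjusted p = 0.00394). A second TCF7 probe, A_33_P3250671, gave -1.48 there (adjusted p = 0.00462). For shGATA3 against control these probes gave 0.33 and 0.53, neither called. Since no fall of GATA3 against control was called, the first hairpin group is called the arrays labelled shGATA3, and no loss of GATA3 is implied by a direction given for it. All 10 T-lineage markers were well above background on all 6 arrays, whereas the B-cell marker CD22, the NK-cell markers KLRD1, KLRF1 and FCGR3A and the myeloid marker CD33 were so on no array. The summed log2 level of the 6 B-cell markers moved with the groups, between 12.80 and 12.93 in control, 14.06 and 14.14 for shGATA3 and 11.95 and 12.04 on those labelled shTCF1, and CR2 was the brightest of the 6. The other marker sums were 16.43 to 16.44, 16.82 to 17.03 and 16.41 to 16.67 for the T lineage in the same order of groups, 10.80 to 11.04 for NK cells and 8.10 to 8.32 for myeloid cells over all arrays. CD3D was the brightest of the 10 T-lineage markers on every array, so the T-lineage sum weights it most. Its difference of 0.81 between shGATA3 and control was not called (adjusted p = 0.138 in limma). Within the T lineage, CD2, an adhesion receptor of T cells, read 11.89 and 11.90 in control, 11.41 and 11.45 for shGATA3 and 9.69 and 9.73 for shTCF1. It was lower than in control by -2.19 for shTCF1 (4.55-fold, adjusted p = 0.00199, called whichever array was left out) and by -0.47 for shGATA3 (adjusted p = 0.0439, a call lost whichever array was left out). CD3G was higher for shTCF1 than for control by 0.63 (adjusted p = 0.0370), a call lost without either control array or either shTCF1 array. The part of these markers in the results for the family was not tested. All arrays shared 1 slide and 1 scan, but both control arrays lay in slide row 2 and the 4 hairpin arrays in row 1, so that slide row and the difference of either hairpin from control cannot be told apart. The direct comparison of the hairpins lies within 1 row, but shTCF1 held slide columns 1 and 2 and shGATA3 columns 3 and 4, so that slide column and hairpin cannot be told apart there.

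**Figure D1:**
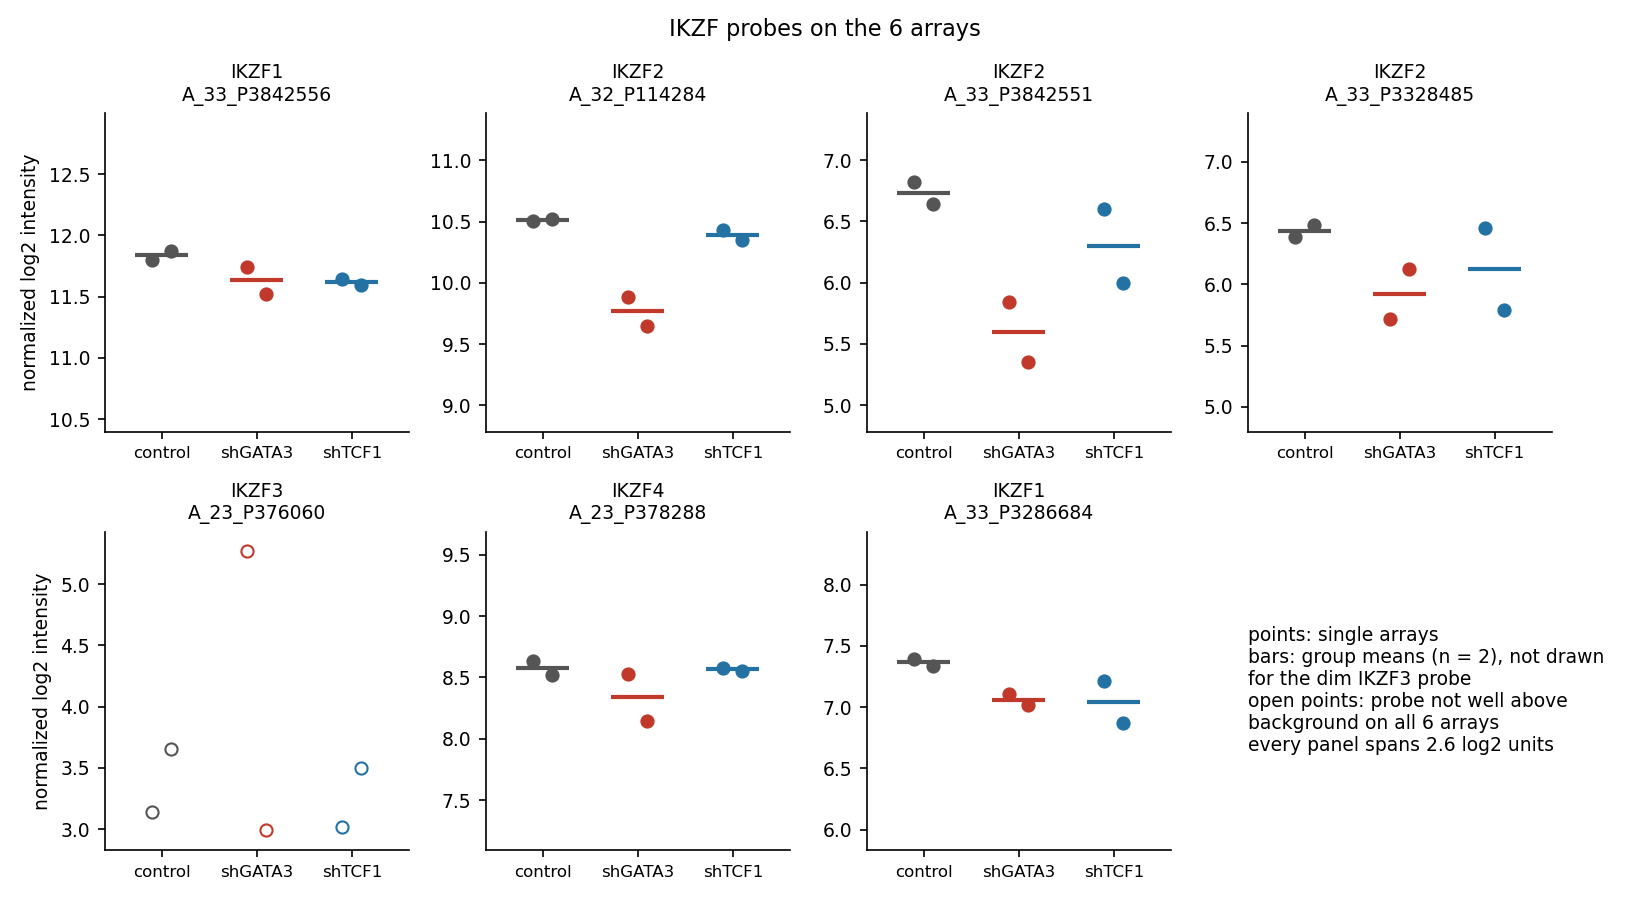
Normalized log2 intensity (vertical axis) of each IKZF probe on the 6 arrays, by group; points are single arrays and bars are means of 2 arrays. On A_32_P114284 both arrays labelled shGATA3 (9.89 and 9.65) lie below the other 4 arrays (10.35 to 10.52). Every panel spans the same 2.6 log2 units, and the last panel is A_33_P3286684, which lay outside the rule.

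IKZF2 carried the changes that passed the test. Its 3 probes have the same RefSeq accession, NM_001079526, and so are repeated measurements of 1 gene and not independent members. The brightest, A_32_P114284, gave normalized log2 intensities of 10.50 and 10.52 in control, 9.89 and 9.65 for shGATA3 and 10.43 and 10.35 on those labelled shTCF1. The arrays labelled shGATA3 were the lowest, and no group overlapped another. The means were 10.51 ± 0.016, 9.77 ± 0.17 and 10.39 ± 0.057 (SD, n = 2 each).

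On A_32_P114284, IKZF2 was lower on the arrays labelled shGATA3 than in control by a log2 difference of -0.75 (SE 0.12, 95% interval -1.04 to -0.46, adjusted p = 0.0247 in limma), which is a 1.68-fold difference. It was also lower there than on the arrays labelled shTCF1, by -0.62 (SE 0.12, 95% interval -0.91 to -0.33, adjusted p = 0.0392), a 1.54-fold difference. The arrays labelled shTCF1 differed from control by -0.12 (95% interval -0.41 to 0.17, adjusted p = 0.490), which was not called. In the order of levels, control and shTCF1 were thus neighbours whose difference was not called, while shGATA3 stood below both. In bulk RNA, fewer cells that express IKZF2 and less IKZF2 RNA per cell cannot be told apart. The call against control was lost without control replicate 1 (-0.76, adjusted p = 0.124), control replicate 2 (-0.73, adjusted p = 0.103) or shGATA3 replicate 2 (-0.63, adjusted p = 0.0850), and the direct call was lost whichever of the 6 arrays was left out (-0.74 to -0.50, adjusted p between 0.0531 and 0.134).

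The second IKZF2 probe, A_33_P3842551, gave 6.82 and 6.64 in control, 5.84 and 5.35 for shGATA3 and 6.60 and 5.995 on those labelled shTCF1. The groups did not overlap and had the same order as on the first probe, although the shTCF1 arrays lay further apart. The difference of shGATA3 from control was -1.13 (SE 0.25, 95% interval -1.74 to -0.52, adjusted p = 0.0542), or 2.19-fold, just outside the threshold of 0.05. It passed the threshold in 5 of 19 alternative fits, among them those restricted to catalogue probes (adjusted p = 0.0429) or to probes bright enough on every array (adjusted p = 0.0308). The difference of shGATA3 from shTCF1 was -0.70 (SE 0.25, adjusted p = 0.166) and that of shTCF1 from control was -0.43 (SE 0.25, adjusted p = 0.272), and neither was called. Without 1 shTCF1 array these values ranged widely, from -1.01 (without replicate 2) to -0.40 (without replicate 1) and from -0.73 (without replicate 1) to -0.12 (without replicate 2).

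The remaining IKZF2 probe, A_33_P3328485, gave 6.38 and 6.48 in control, 5.71 and 6.13 for shGATA3 and 6.46 and 5.79 on those labelled shTCF1. Here the hairpin groups overlapped each other, and shTCF1 replicate 1 lay within the control range. None of its differences was called, at -0.51 (SE 0.25, 95% interval -1.12 to 0.10, adjusted p = 0.251) for shGATA3 and -0.31 (SE 0.25, 95% interval -0.92 to 0.30, adjusted p = 0.417) for shTCF1 against control. The control arrays were above both arrays labelled shGATA3 on all 3 probes, so the direction was shared, with differences from -1.13 to -0.51. The size on the dimmer probes depended on the processing: with normexp and quantile normalization they were -0.55 on A_33_P3842551 and -0.20 on A_33_P3328485, and without shGATA3 replicate 1 the latter was -0.31. Across the 6 arrays, which fall into groups, the first probe followed the second with a Pearson correlation of 0.93 and the remaining one with 0.55, a description of probes that share arrays.

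IKZF1, the founding member, was measured by A_33_P3842556 (NM_006060). Its log2 intensities were 11.80 and 11.87 in control, 11.74 and 11.52 for shGATA3 and 11.64 and 11.60 on those labelled shTCF1. The 4 hairpin arrays lay below both control arrays and overlapped each other. The differences from control were -0.20 (SE 0.12, 95% interval -0.49 to 0.079, adjusted p = 0.315) for shGATA3 and -0.22 (SE 0.12, 95% interval -0.50 to 0.066, adjusted p = 0.234) for shTCF1, neither of which was called. The hairpin groups differed from each other by 0.013 (95% interval -0.27 to 0.30).

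A second IKZF1 probe, A_33_P3286684, carries the transcript accession ENST00000484847 and no RefSeq accession, so it lay outside the rule and is given beside it. It read 7.40 and 7.34 in control, 7.10 and 7.02 for shGATA3 and 7.22 and 6.87 on those labelled shTCF1. As on the first IKZF1 probe, all hairpin arrays were below both control arrays. Its differences from control, -0.31 (SE 0.14, adjusted p = 0.228) and -0.32 (SE 0.14, adjusted p = 0.162), were not called either.

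IKZF4, on A_23_P378288 (NM_022465), gave 8.63 and 8.52 in control, 8.53 and 8.15 for shGATA3 and 8.58 and 8.55 on those labelled shTCF1. Only shGATA3 replicate 2 stood apart, below the other 5 arrays. The difference of shGATA3 from control was -0.24 (SE 0.15, 95% interval -0.60 to 0.12, adjusted p = 0.348), and without shGATA3 replicate 2 it was -0.051. The shTCF1 arrays differed from control by -0.013 (95% interval -0.37 to 0.35), a value whose sign turned under all 5 other scalings of the scanner values.

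IKZF3 was near the limit of detection. Its probe, A_23_P376060 (NM_012481), was well above background only on shGATA3 replicate 1, with a background-corrected intensity of 29.4 against 3.35 to 10.8 on the other 5 arrays. On the normalized log2 scale it read 3.14 and 3.66 in control, 5.27 and 2.99 for shGATA3 and 3.02 and 3.50 on those labelled shTCF1. The single high array had no counterpart in its own group, and no fold change is given. IKZF5 had no probe by the rule and was not analysed here.

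**Figure D2:**
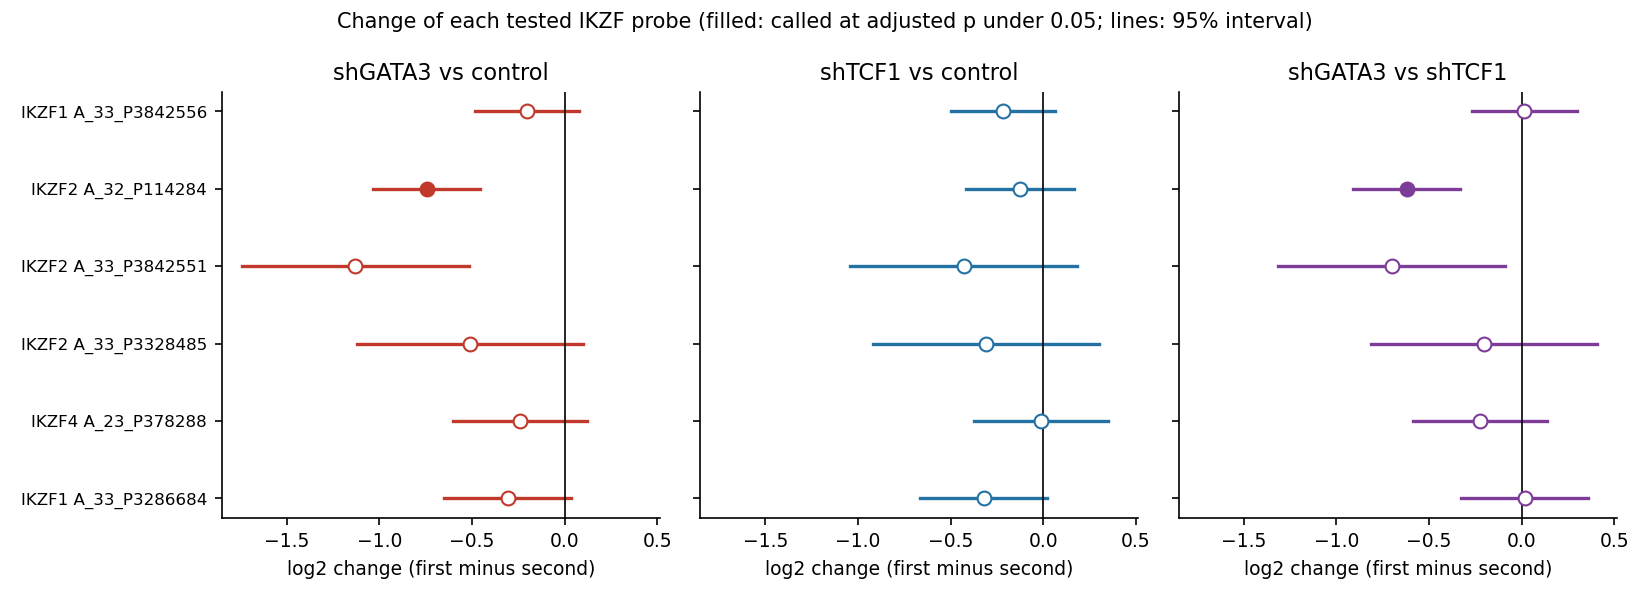
Log2 change of the 5 tested IKZF probes and of the IKZF1 transcript probe (horizontal axis, first group minus second) in the 3 comparisons, with 95% intervals from limma; filled points were called. The filled points are those of A_32_P114284 at -0.75 and -0.62.

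Counted over probes, 1 of 5 was called between shGATA3 and control, where 6.84% of all 31134 probes were called. Between shTCF1 and control 0 of 5 were called, against 16.9% of all probes, with 0 of the 5 at an unadjusted p under 0.05, and between the hairpins 1 of 5 was called, against 6.18%. By their means all 5 probes were lower in both hairpin groups than in control, except that IKZF4 for shTCF1 changed sign with the scaling. The groups did not overlap, with the first group lower, at 4 of 5 probes for shGATA3 against control (31.1% of all probes), at 3 of 5 for shTCF1 against control (35.1%) and at 3 of 5 for shGATA3 against shTCF1 (26.1%). The median change of the 5 was -0.51, -0.22 and -0.23 in these comparisons, and that of all tested probes was -0.011, -0.020 and -0.0041. Because 3 of the 5 probes measure IKZF2, these figures weight that gene most, and both comparisons with control use the same control arrays.

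**Figure D3:**
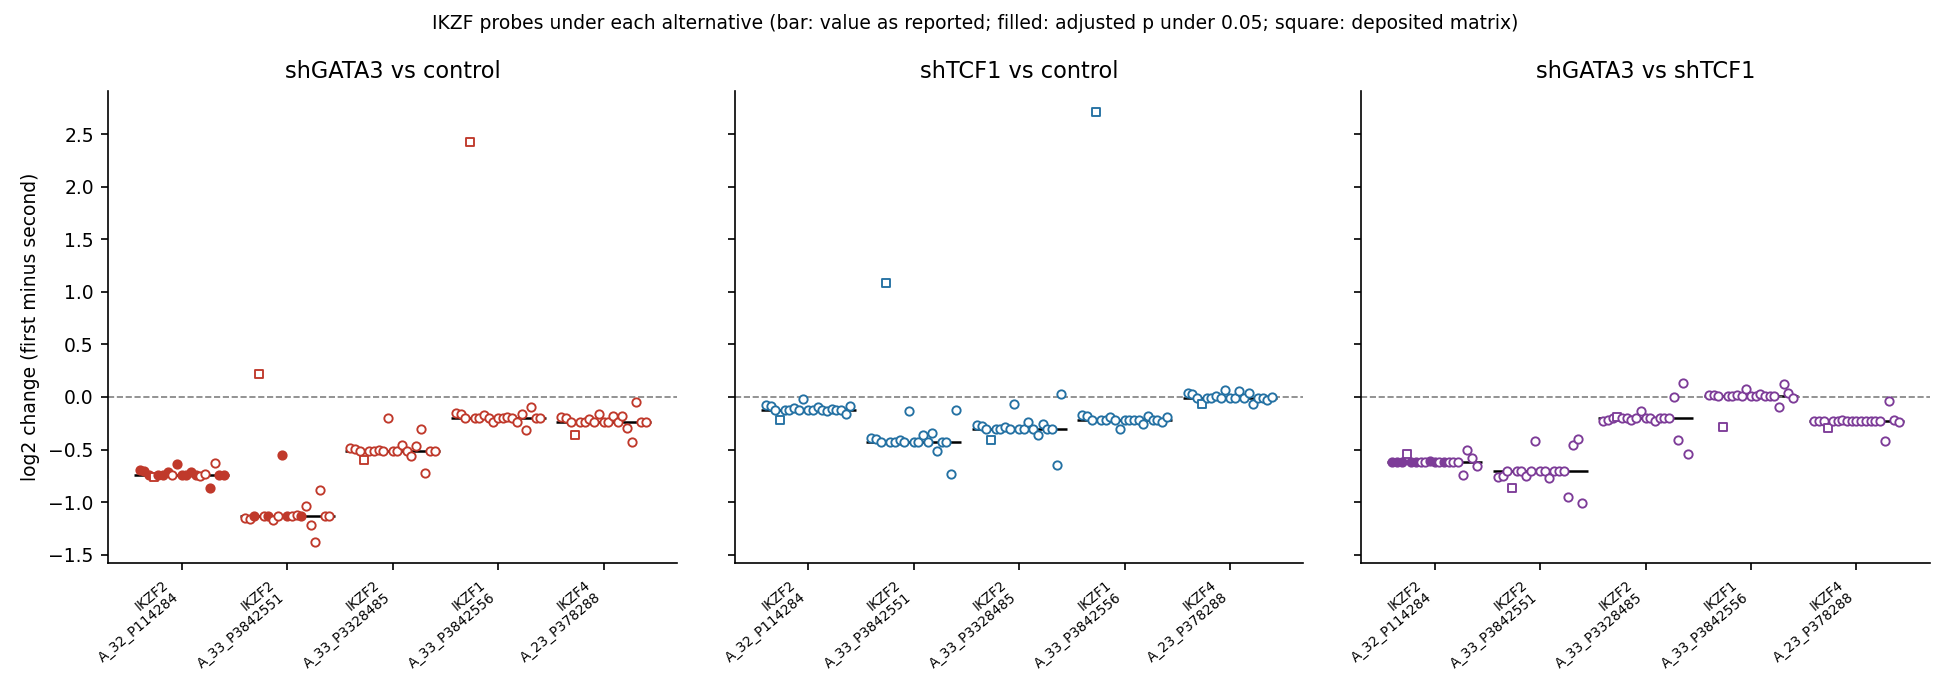
Log2 change (vertical axis) of the 5 tested IKZF probes in the 3 comparisons under each alternative fit; bars mark the reported value, filled points have an adjusted p under 0.05 and squares come from the deposited matrix. The first IKZF2 probe stays between -0.86 and -0.63 against control for shGATA3, while the squares of IKZF1 stand at 2.42 and 2.71.

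On the brightest IKZF2 probe the difference of shGATA3 from control stayed between -0.86 and -0.63 in all 19 alternatives and was called in 14 of them. The direct difference stayed between -0.74 and -0.50 and was called in 8 of 19. These 19 fits are not all distinct. In every comparison, leaving out 1 array of the group outside it gave the same differences and calls as the fit of only the 4 arrays compared. The 14 calls therefore hold 1 fit more than once. The exception to most patterns was the deposited log2 matrix, in which IKZF1 read 5.72 in the column of control replicate 2 and 12.05 in that of control replicate 1, whereas the normalized scanner values of those arrays were 11.87 and 11.80. That column followed none of the 6 arrays closely (highest Spearman correlation over probes 0.756), and its values for IKZF1 were not used in the text above.

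The genes whose profile over the 6 arrays lay closest to each tested probe were sought among the 17173 named probes of other genes (17175 for IKZF1 and IKZF4) that were well above background throughout, by the root mean square difference of centred log2 values. For the brightest IKZF2 probe they were LINC00515 (0.039), ANXA3 (0.055), a calcium-dependent phospholipid-binding annexin, and MEX3A (0.057), an RNA-binding protein. For A_33_P3842551 they were PLCB4, B4GALT2 and RASIP1 (0.16 to 0.19), and for A_33_P3328485 BTN1A1, TGIF2 and INF2 (0.096 to 0.12). QSER1, FASTKD1 and TM9SF3 lay closest to IKZF1 (0.014 to 0.021) and NUDT17, PRRC1 and SLC26A1 to IKZF4 (0.033 to 0.036). The 3 IKZF2 probes shared none of these genes.

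The chromatin partners of the family called against control were MTA2, SMARCB1 and SMARCA2, all higher for shTCF1. Of 14 NuRD genes 12 were tested, and 0 were called between shGATA3 and control or between the hairpins. Closest to the threshold for shGATA3 were CHD4, the main NuRD remodelling ATPase, with a difference of -0.45 (adjusted p = 0.0504), and MTA2, a NuRD scaffold, with 0.65 (adjusted p = 0.0507). Against control, MTA2 was called for shTCF1, at 11.32 and 11.40 against 10.46 and 10.44, by 0.91 (SE 0.14, adjusted p = 0.0140), and it was the 1 called of 12, or 8.33%, beside 16.9% of all probes. Of 9 other co-repressors and remodellers, all tested, 2 rose on the arrays labelled shTCF1 (22.2%, beside the same 16.9%) and 0 were called in either comparison with shGATA3, where 6.84% (against control) and 6.18% (direct) of all probes were called. These were the SWI/SNF subunits SMARCB1, from 12.47 and 12.51 to 13.08 and 13.14 (difference 0.62, SE 0.10, adjusted p = 0.0171), and SMARCA2, from 5.61 and 5.73 to 6.44 and 6.13 (difference 0.62, SE 0.15, adjusted p = 0.0455). The calls of MTA2 and SMARCB1 were lost without either control array or either array labelled shTCF1, and that of SMARCA2 whichever array was left out. The differences of these 3 genes were all above 0.32 in each of the 19 alternatives.

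Among factors that govern the turnover and activity of the Ikaros proteins, 0 of 5 genes of the cereblon ubiquitin ligase, which degrades Ikaros and Aiolos when bound by lenalidomide, were called in any comparison. Casein kinase 2 phosphorylates Ikaros and protein phosphatase 1 reverses this, and of their 6 genes 2 were lower for shTCF1 than for control and 0 were called in the other comparisons. Of all probes 16.9% were called for shTCF1 against control, 6.84% for shGATA3 against control and 6.18% directly. CSNK2A1, a catalytic subunit of the kinase, read 11.69 and 11.55 in control and 10.78 and 10.74 on the arrays labelled shTCF1, a difference of -0.86 (SE 0.16, adjusted p = 0.0217). PPP1CA, a catalytic subunit of the phosphatase, read 12.84 and 12.78 in control and 12.04 and 12.22 there, a difference of -0.68 (SE 0.11, adjusted p = 0.0162). The same CSNK2A1 probe read 10.91 and 11.33 on the arrays labelled shGATA3, below both control arrays, and its difference of -0.51 was not called (adjusted p = 0.115). Without either control array or without shTCF1 replicate 1 the calls of both genes were lost, and that of CSNK2A1 also without shTCF1 replicate 2.

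**Figure D4:**
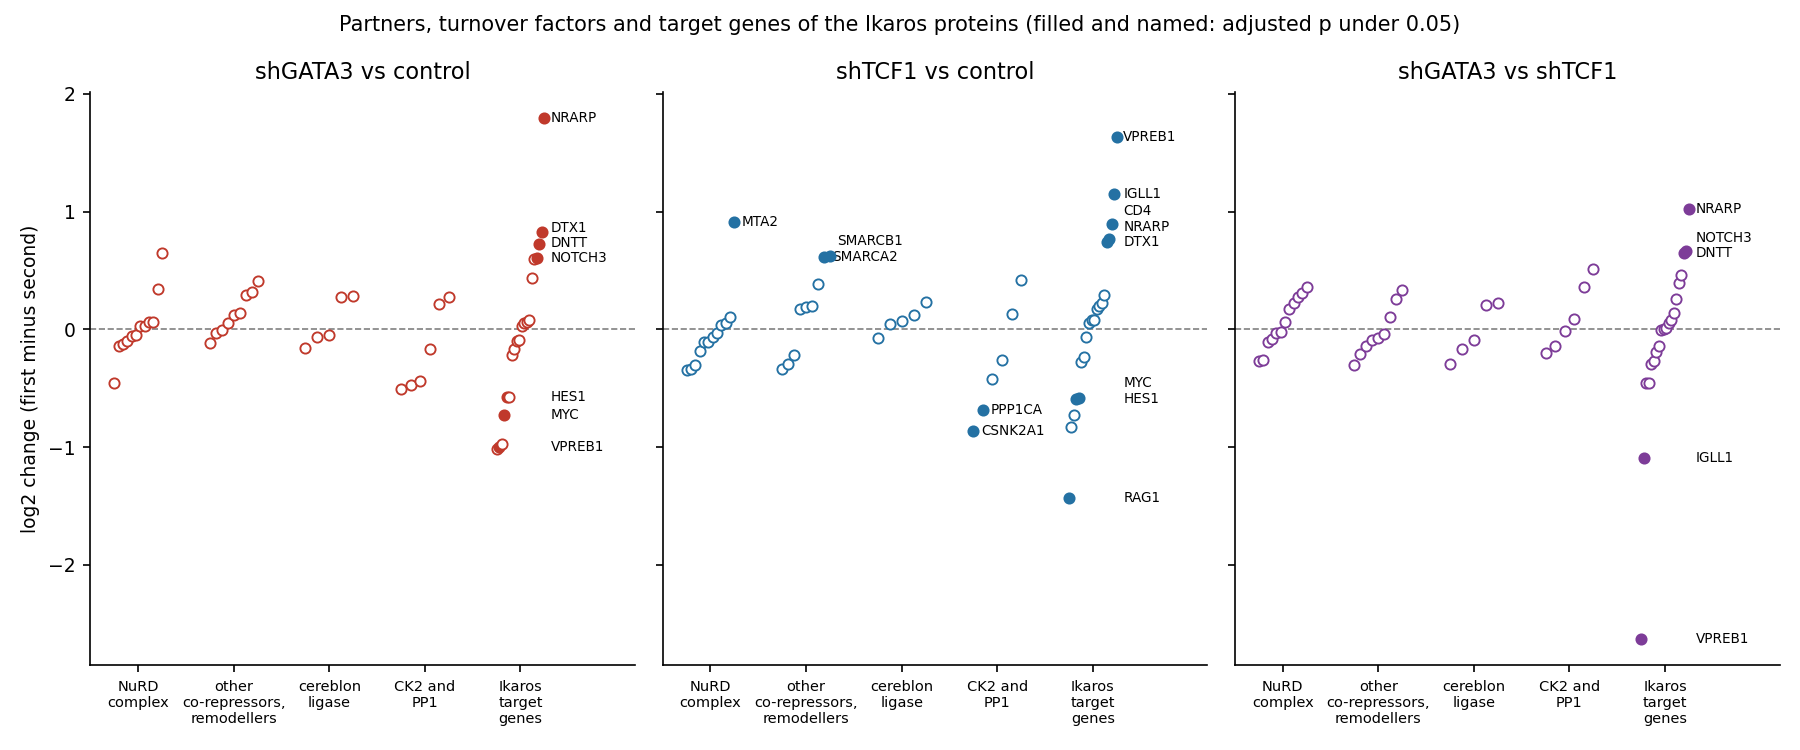
Log2 change (vertical axis, first group minus second) of partners, turnover factors and target genes in the 3 comparisons, 1 point per tested gene; filled points, with their names, were called. Among target genes the called changes run both ways, from NRARP at 1.79 to VPREB1 at -1.002 for shGATA3 against control. RAG1 is drawn at its fitted value although it was dim on the arrays of both hairpin groups.

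Genes described as bound or controlled by Ikaros proteins moved in both directions. Of 28 such genes 20 were tested. Between shGATA3 and control 7 were called, 4 higher and 3 lower (median of the list -0.031), where 6.84% of all probes were called. Between shTCF1 and control 8 were called, 5 higher and 3 lower (median 0.080), against 16.9% of all probes, and 1 of the 3 lower was RAG1, which entered the test through the control arrays alone. Between the hairpins 5 were called, 3 higher and 2 lower (median 0.0079), against 6.18%. The list was drawn up with results of these samples known, and several of its genes are also targets of Notch signalling, so the counts describe these genes and are not independent evidence of a direction.

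Targets shared with the Notch pathway showed both directions, and DNTT, not counted among them here, is given beside them. NRARP, a Notch feedback regulator, read 7.28 and 7.27 in control, 9.11 and 9.03 for shGATA3 and 8.06 and 8.03 on those labelled shTCF1. It thus separated all 3 groups, with differences from control of 1.79 (adjusted p = 0.00169) and 0.77 (adjusted p = 0.00931) and of 1.02 (adjusted p = 0.00468) between the hairpins. DNTT, the terminal transferase of antigen receptor genes, rose for shGATA3 by 0.73 against control (adjusted p = 0.0262), NOTCH3 by 0.60 (adjusted p = 0.0418) and DTX1, a Notch target, by 0.82 (adjusted p = 0.0169). DTX1 was also higher for shTCF1 than for control, by 0.74 (adjusted p = 0.0137), a call lost without either control array or shTCF1 replicate 1. HES1, a Notch-induced repressor, and MYC fell in both hairpin groups, HES1 from 8.51 and 8.52 to 7.98 and 7.89 for shGATA3 and to 7.82 and 8.02 for shTCF1, and MYC from 12.20 and 12.23 to 11.56 and 11.41 and to 11.61 and 11.65. Leaving out any 1 array, or quantile normalization in place of VSN, ended the calls of HES1 and NOTCH3 for shGATA3, and leaving out any control array or array labelled shGATA3 ended those of DNTT and DTX1. MYC for shGATA3 was not called without either control array or without shGATA3 replicate 2, and the calls of NRARP, HES1 and MYC for shTCF1 were lost without either control array, the last 2 also without shTCF1 replicate 1 and MYC also without shTCF1 replicate 2. The direct calls of DNTT and NOTCH3 were lost whichever array was left out.

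Surrogate light chain genes, which Ikaros regulates in B-cell precursors, set the hairpins apart. VPREB1 read 11.21 and 11.21 in control, 10.09 and 10.32 for shGATA3 and 12.78 and 12.90 on those labelled shTCF1. Its differences were -1.002 (adjusted p = 0.0124, lost without either control array) and 1.63 (adjusted p = 0.00384) from control and -2.63 (adjusted p = 0.000734) between the hairpins. IGLL1 rose on the arrays labelled shTCF1 by 1.15 (adjusted p = 0.00633), read 9.20 and 9.39 for shGATA3 against 9.30 and 9.18 in control, and its direct difference was -1.09 (adjusted p = 0.00623). CD4, the coreceptor, rose by 0.89 for shTCF1 (adjusted p = 0.00774). RAG1, the recombinase subunit, was well above background on both control arrays and on no array of either hairpin group. It read 5.35 and 4.90 in control, 4.48 and 3.83 for shGATA3 and 3.38 and 4.01 for shTCF1, so its dimness did not set the hairpins apart. It passed the filter on dim probes through control alone, which fixed the direction, so its call for shTCF1 supports no change and neither its p nor a fold is given. These genes moved beside the B-cell marker CR2, which read 12.88 and 12.74 in control, 14.12 and 14.04 for shGATA3 and 11.83 and 11.92 for shTCF1, and so ran against VPREB1 in both hairpin groups.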

How the data were processed

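The members and gene lists were chosen with earlier results of these data known. Per the file headers, Agilent Feature Extraction 10.7.1.1 made the deposited intensity values (the submitters' processing notes name 9.1). It removed and detrended each spot's background without scaling between arrays, and the headers name the build hg19. A further table deposited by the authors held log2 values, described as VSN-normalized (variance stabilizing normalization), whose scale and centring are not stated; it was an alternative only. Its column medians were 4.94 to 5.11.

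Control and outlier-flagged spots were left out (71 probes), spots of a probe were averaged, and the VSN model was written anew in R 4.3.3 (trimming quantile 0.9, 7 iterations, 5 strata), since the package was not installed. It takes an arsinh, equal to a log2 at high signal. Tests covered each probe that the software marked well above background on the 2 arrays of some group. Probes were named through unversioned RefSeq accessions (25729 of 57176 matched); A_33_P3286684 was named through the study's probe annotation. The 75th percentile intensity was 271 and 290 on the control arrays and 166 to 179 on the others, 51.1% to 56.2% of probes were well above background, and 0 spots were saturated. The number of arrays limits the precision.

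Groups came from the sample titles. Tests were two-sided and used lmFit and eBayes of limma 3.58.1 (1 fit over 6 arrays, group only, 3 residual and 2.97 prior degrees of freedom), with Benjamini-Hochberg adjustment over all 31134 probes and calls at an adjusted p below 0.05. With 2 arrays against 2, an exact permutation test cannot give a two-sided p under 0.333. The study describes its averages as those of 2 independent experiments, while the labels do not say what was separate between arrays of a group; p values measure the spread between these arrays. For a listed gene the brightest tested probe by mean was taken. Named were all member probes, GATA3, TCF7, the called list genes (at most 4 rises and 4 falls per list and comparison) and the 3 genes nearest to each tested member probe; CHD4, MTA2 and CSNK2A1 for shGATA3 and the cell type markers were named beside them after their values were seen. Of the columns with per-sample values 0 were left unused.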

Additional observations from a re-analysis of the deposited data

How the results depend on the processing

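The count of IKZF probes called for shGATA3 against control was 1; it was 2 with normexp and quantile normalization, with probes well above background on all arrays, with catalogue probes, with an intensity trend and with the replicate block, and 0 with the deposited matrix and without a filter on dim probes. Leaving out 1 array gave 0 to 1. The direct count of 1 became 0 with median centring (chosen after seeing the data), the deposited matrix, no filter, only the 4 arrays compared and the replicate block, and in every fit without 1 array (0 to 0). For shTCF1 against control the count was 0 throughout. The replicate numbers did not pair the arrays (correlations of same-number deviations -0.040, -0.0098 and 0.049); with the replicate block the second IKZF2 probe was called against control (-1.13, adjusted p = 0.0263) and the first was not called directly (-0.62, adjusted p = 0.0625). A slide or scan block was not run, since 1 slide and 1 scan hold all arrays.

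Signs turned under the deposited matrix for IKZF1 A_33_P3842556 (2.42 for shGATA3 and 2.71 for shTCF1 against control, -0.29 directly), IKZF2 A_33_P3842551 (0.22 and 1.08), IKZF1 A_33_P3286684 (0.60 and 0.56), VPREB1 for shGATA3 (1.71) and, for shTCF1, PPP1CA (3.27), MYC (0.12) and TCF7 A_33_P3250671 (1.24). CD2 also turned (2.69 for shGATA3 and 0.85 for shTCF1). Of the 6 columns of that matrix, 3 (shGATA3 replicate 2 and both of shTCF1) followed their own array best (Spearman correlations 0.934 to 0.975). Those of control replicate 1 and shGATA3 replicate 1 followed the other array of their group more closely (0.979 and 0.974) than their own (0.942 and 0.941), and that of control replicate 2 followed none closely. The cause was not tested. IKZF4 for shTCF1 turned to 0.038, 0.025, 0.052, 0.014 and 0.067 under 75th percentile scaling over all probes and over those above background on all arrays, quantile normalization, median centring and normexp. GATA3 for shGATA3 became 0.00047 under 75th percentile scaling, and A_33_P3286684 directly -0.019 under normexp. Without 1 array, IKZF4 for shTCF1 ranged from -0.068 to 0.042, IKZF2 A_33_P3328485 for shTCF1 from -0.65 to 0.029 and directly from -0.54 to 0.13, and the direct differences of the IKZF1 probes from -0.096 to 0.12 (A_33_P3842556) and from -0.16 to 0.19 (A_33_P3286684).

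Over all probes, 2130, 5274 and 1925 were called in the 3 comparisons; the deposited matrix gave 0 in each, and the other alternatives gave 437 to 4292, 865 to 7725 and 701 to 3285. Of the target genes 0 to 10, 0 to 9 and 0 to 6 were called. NuRD calls ranged to 3, 3 and 0, those of other co-repressors and remodellers to 1, 5 and 2, of the ligase to 1, 0 and 0 and of CK2 and PP1 to 3, 4 and 1, each from 0. No scaling moved the median of all tested probes by as much as 0.1.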
